A study of Mus musculus with 18 samples.

Results

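Expression was compared between sets of primary mouse myotube cultures that had received the same siRNAs. Of the 18 arrays of the study, 12 were taken by their array number: numbers 2 and 3 (set A), 4 and 5 (set B) and 6 and 7 (set C) of the GL2 siRNA arrays and of the dystrophin siRNA arrays, so that each set held 4 arrays, 2 per siRNA. All cultures came from limb muscles of C57BL/10 mice aged 3 to 5 days. In 6 of the 12, an siRNA against dystrophin (Dys) was transfected on days 2 and 4 after seeding. The other 6 received, on the same days, an siRNA against firefly luciferase (GL2), which mouse cells do not have. Differentiation medium was given on day 4 and RNA was collected on day 6, 48 h later, so every set followed the same protocol and timing. Left out were number 1 of each siRNA (2 arrays) and the 4 untreated cultures.

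The cultures were prepared on 4 occasions, and on each one the muscle homogenates of different mice were mixed before seeding. The labels name neither the occasion of an array nor its chip, so occasion, litter, hybridisation and set cannot be told apart. The 4 arrays of a set may also come from 1 mixture, in which case the p-values below measure only the spread between dishes of that mixture. The sets were proposed after groupings of these arrays had been seen.

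Muscle dissociated from a newborn mouse yields myoblasts, which fuse into myotubes once serum is withdrawn, together with connective tissue cells. Fibroblasts lay down collagen and the other matrix proteins, fibro-adipogenic progenitors can turn into fat cells, and resident macrophages and other blood cells are carried over from the tissue. Each population brings its own set of transcripts, and in RNA of a whole dish fewer cells of a type and less RNA per cell cannot be told apart.

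Levels are normalized log2 intensities. A probe counted as detected when its detection p-value was under 0.05 on at least 4 of the 18 arrays, which 19437 of 46632 probes met; they carry 10500 gene symbols. Per array, 17559 to 17955 probes were detected in set A, 18178 to 18530 in set B and 17551 to 17853 in set C. Each probe was fitted with the 3 sets and the siRNA as terms (limma), and "changed" or "differed" below means an adjusted p under 0.05 over all probes of the array. With 4 arrays a set, precision is limited by their number.

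The knockdown was present in all 3 sets. *Dmd*, the dystrophin gene, read 10.25, 10.03, 10.51, 10.46, 10.38 and 10.27 on GL2 arrays 2 to 7. On the corresponding Dys arrays it read 8.52, 8.35, 8.32, 8.21, 8.26 and 8.07. The groups were far apart, with a difference of -2.03 on the log2 scale (adjusted p = 7.7e-07), whereas the test among sets gave an adjusted p of 0.79.

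The sets differed in 2797 of the 19437 detected probes (14.4%), by an F test over the 3 sets. By gene, the count was 1621 of 10500 (15.4%). Of these probes 884 were highest in set A, 944 in set B and 969 in set C, and 1913 differed over 1.5-fold between a pair of sets. The siRNA term of the same fit called 2068 probes (10.6%), and 514 probes were called for both. Set C stood farthest from set A, with 1297 probes higher (6.67%) and 1316 lower (6.77%). With median centring in place of quantiles that split was 834 higher and 1322 lower. Set B against set A gave 807 calls (4.15%), 583 higher (3%) and 224 lower (1.15%). Set C against set B gave 1400 (7.2%), 467 higher (2.4%) and 933 lower (4.8%). By gene, set B was lower than set A in 1.33% of those detected. Levels of single probes that do not overlap between sets are common here: this held for 20.6% of detected probes between sets A and B, 29.4% between A and C and 26.8% between B and C, after removal of the siRNA difference.

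The set differences could be measured separately in the GL2 and in the Dys arrays, each of which is a culture of its own. Over the 19437 detected probes the difference of a set pair in GL2 arrays correlated with the same difference in Dys arrays at r = 0.58 (B against A), 0.64 (C against A) and 0.63 (C against B), a description over probes, which are not independent replicates. The test for a set difference that depended on the siRNA called 0 probes (0%) by limma, while 839 (4.32%) had an unadjusted p under 0.05. Each array, taken relative to its siRNA group, correlated best with another array of its own set in 12 of 12 cases. The sets were proposed after groupings of these arrays had been seen. This match, and the correlations and variance share that follow, are therefore a description and no evidence for the sets. Pairs from different sets correlated at -0.51 to -0.09, and pairs within a set at 0.25 to 0.53; removing the mean of each siRNA group by itself makes correlations within that group negative on average. Over detected probes the median share of the variance left after siRNA that lay between sets was 45.8%. With no sets the share expected per probe is 20% as a mean, which is not the same measure as a median.

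**Figure D1:**
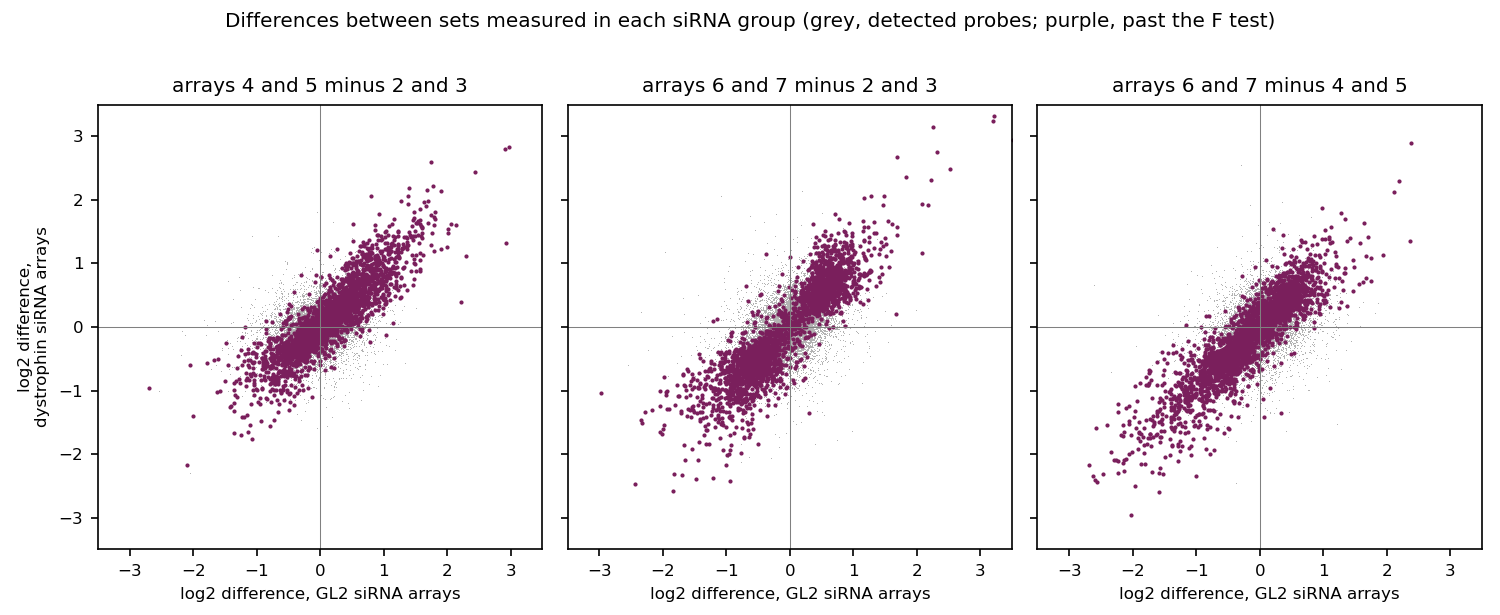
Each point is a detected probe; the x axis gives the log2 difference between 2 sets in the GL2 siRNA arrays and the y axis the same difference in the dystrophin siRNA arrays, for arrays 4 and 5 against 2 and 3, 6 and 7 against 2 and 3, and 6 and 7 against 4 and 5. Purple probes passed the F test among sets in the joint fit, so their place near the diagonal is partly a matter of selection; over all detected probes r was 0.58, 0.64 and 0.63, and 4 probes lie outside the axes.

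The programs did not move together. Among genes that passed the F test, all 21 of the macrophage list were highest in set B and 8 of 13 of the fat cell list in set C. Most of those of the matrix and stress response lists were highest in set A. Outside the macrophage list many members did not pass, and most sarcomere and cell cycle genes did not. The list means per array and the share of each list that passed the F test are plotted.

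**Figure D2:**
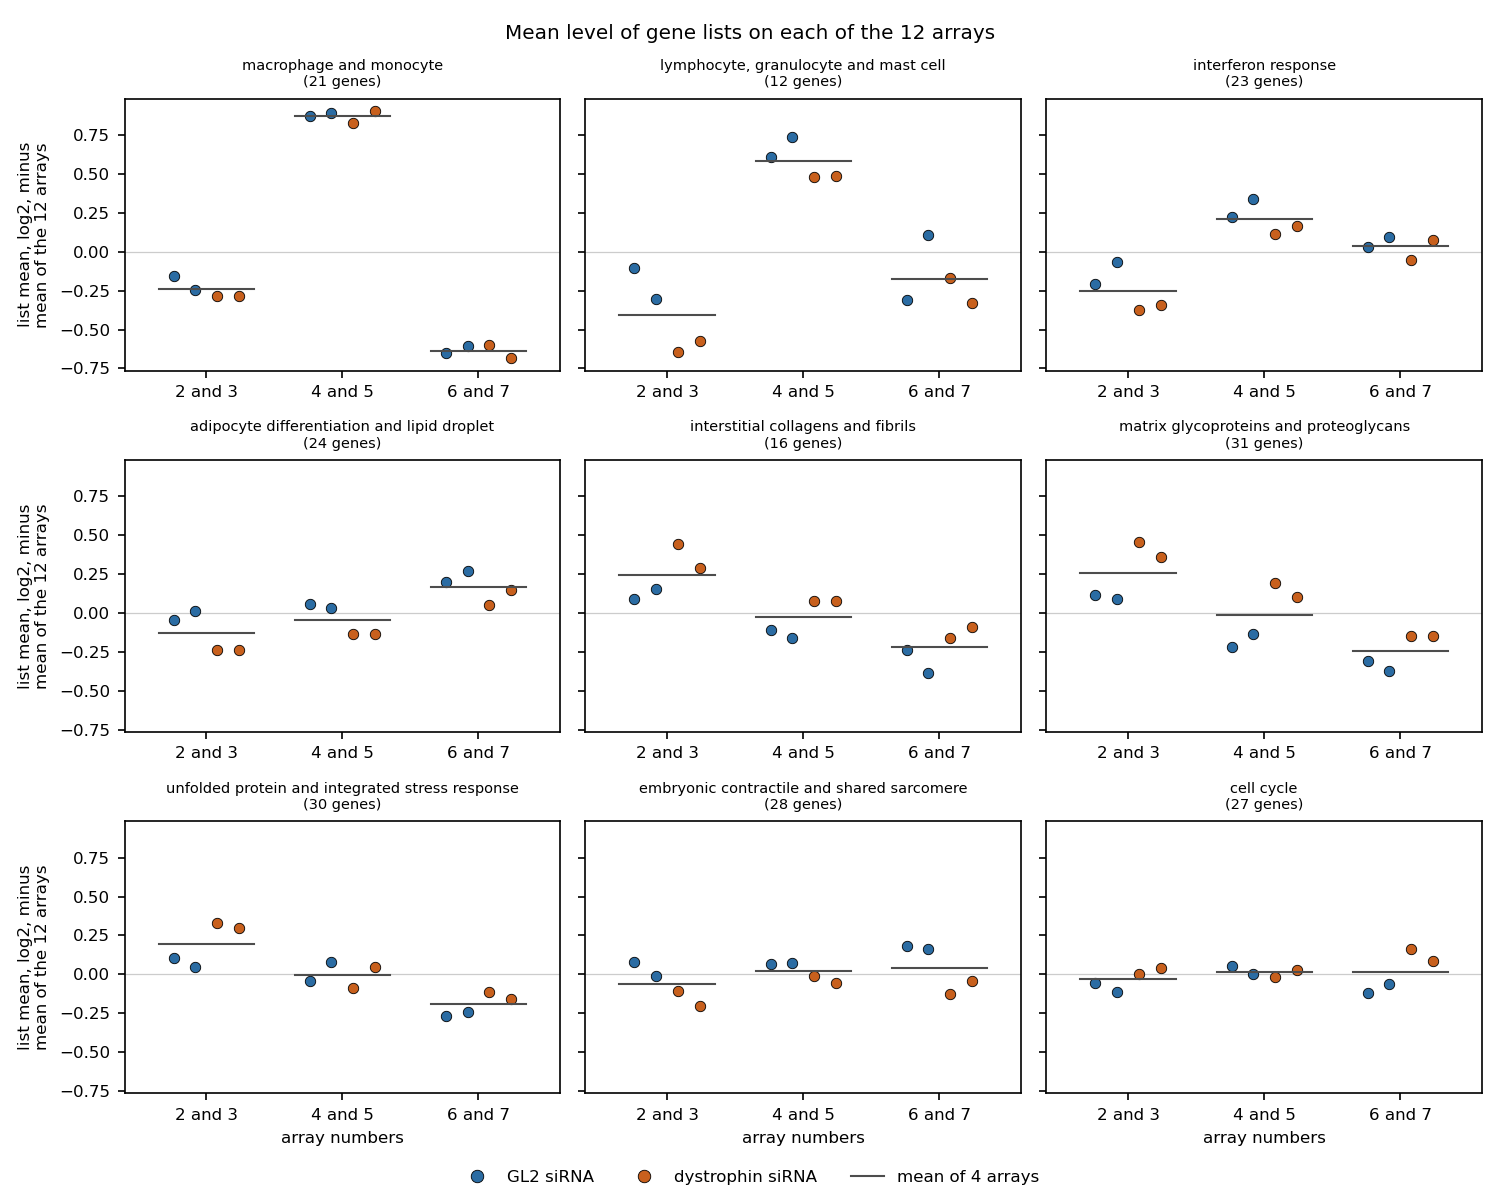
Mean log2 level of the detected genes of 9 lists on each of the 12 arrays, less the mean of the 12 arrays, by array number; blue points are GL2 siRNA arrays, orange points dystrophin siRNA arrays and bars the mean of 4 arrays. The macrophage list separates all 3 sets with no overlap (means 8.57, 9.69 and 8.18 for numbers 2 and 3, 4 and 5, and 6 and 7), whereas the cell cycle list overlaps.

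**Figure D3:**
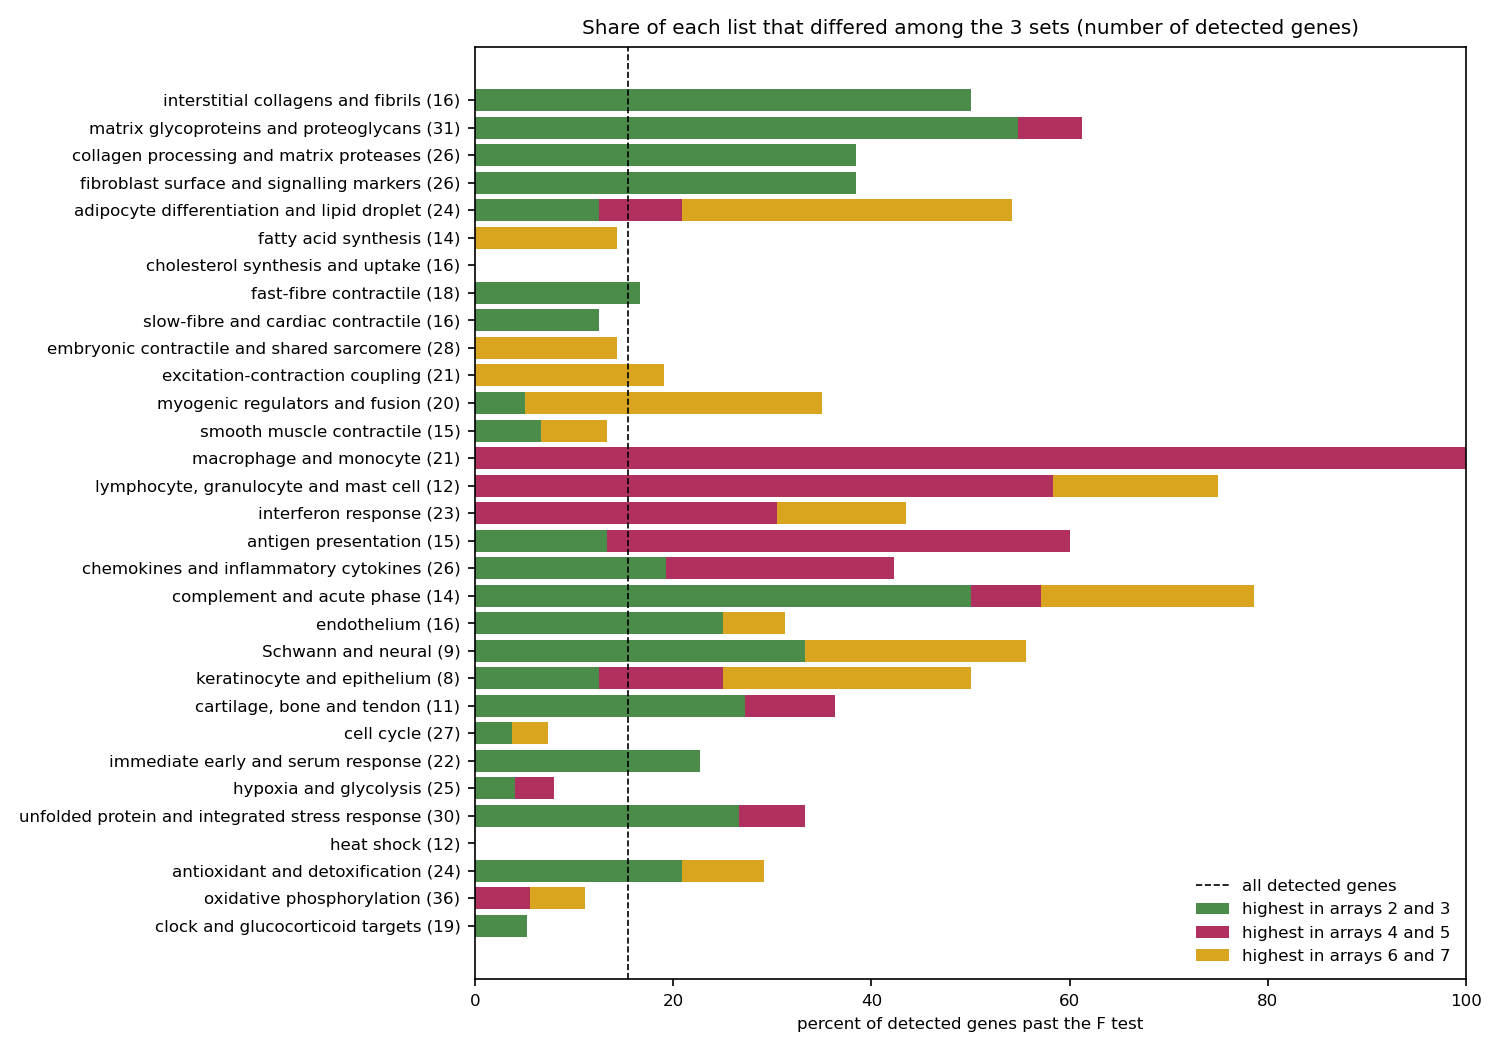
Percent of the detected genes of each list that passed the F test among the 3 sets, for lists with at least 8 detected genes (number in parentheses), coloured by the set in which the gene was highest; the dashed line is the share over all detected genes, 15.4%. The macrophage list reached 100%, all highest in arrays 4 and 5, and the genes of the matrix lists that passed were highest in arrays 2 and 3 nearly throughout.

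Macrophage genes separated the sets most completely. Of 28 macrophage and monocyte genes on the array, 21 were detected and all 21 differed among sets, each highest in set B (15.4% of all detected genes differed; the list was drawn up with earlier results of these arrays known). Set B exceeded set A in 18 of them (3.52% of all detected genes), and set C was below set B in all 21 (5.32% of all). The list mean was 8.57 ± 0.05 in set A, 9.69 ± 0.03 in set B and 8.18 ± 0.04 in set C (log2, SD after removal of the siRNA difference, n = 4), and 99.7% of its remaining variance lay between sets. Leaving out single arrays kept 20 or 21 of the calls.

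*Adgre1*, the F4/80 antigen used to identify mouse macrophages, read 8.22 and 8.32 on the GL2 arrays and 8.31 and 8.27 on the Dys arrays of set A. In set B it read 9.39, 9.59, 9.41 and 9.62, and in set C 7.54, 7.68, 7.31 and 7.42, in the same order of arrays. No 2 sets overlapped, and the siRNA made little difference. Set C was 4.04-fold below set B (log2 difference -2.01, SE 0.10, adjusted p = 9.7e-06) and set B was 2.34-fold above set A (1.22, SE 0.10, adjusted p = 0.00024).

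*Mrc1*, the mannose receptor of tissue-resident macrophages, overlapped between sets A and C. It read 8.96, 8.59, 8.67 and 8.72 in set A, 10.32, 10.31, 10.30 and 10.42 in set B, and 8.61, 8.47, 8.73 and 8.30 in set C. All 4 arrays of set B stood above the other 8. Set B exceeded set A 3.04-fold (adjusted p = 0.00012) and set C 3.51-fold (adjusted p = 2.2e-05).

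*Aif1*, a calcium-binding protein of macrophages, ran 7.80, 7.43, 6.95 and 6.78 in set A, 9.28, 9.31, 8.99 and 9.06 in set B and 7.89, 7.92, 7.86 and 7.68 in set C. Unlike that of *Adgre1*, the mean was lowest in set A, although 1 of its arrays lay within set C. For *Aif1*, set B was higher than set A by 1.92 (SE 0.14, adjusted p = 0.00011) and set C lower than set B by 1.32 (log2 difference -1.32, adjusted p = 0.00044).

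*Cd53*, a tetraspanin of leukocytes, and *Ctss*, the cathepsin that trims the invariant chain in antigen-presenting cells, were detected on no array of set C. *Cd53* read 5.43, 5.52, 5.79 and 5.35 in set A and 6.82, 7.05, 6.92 and 7.09 in set B. The sets did not overlap, and set B was at least 3.74-fold above set C (adjusted p = 9.7e-06), where the bound sets the mean of set B against the higher, on each undetected array, of the probe's own value and the lowest detected signal. *Ctss* read 5.72, 5.32, 5.56 and 5.61 in set A and 6.20, 6.81, 6.20 and 5.99 in set B, at least 2.36-fold above set C (adjusted p = 0.00035). For *Ctss* the difference of set B from set A was 0.75 (adjusted p = 0.099). *Tyrobp*, the adaptor of activating myeloid receptors, was 1.90 lower in set C than in set B (log2 difference -1.90, adjusted p = 0.00019). The same comparison gave -1.99 for the inhibitory Fc receptor *Fcgr2b* (adjusted p = 0.0004) and -1.11 for lysozyme, *Lyz2* (adjusted p = 0.00045).

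A few myeloid genes outside the list were at the background in set A. *P2ry13*, a nucleotide receptor, read 7.58, 7.73, 7.14 and 7.67 in set B and 6.06, 6.02, 5.94 and 6.16 in set C, and no array of set A detected it. Its level in set B was at least 5.52-fold that of set A (adjusted p = 1.3e-05). *Siglec1*, a sialic acid receptor of resident macrophages, and *Hpgds*, the haematopoietic prostaglandin D synthase, were detected in set B alone, on 4 of its 4 arrays. Set B exceeded the others at least 1.9-fold for *Siglec1* and at least 1.43-fold for *Hpgds*.

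**Figure D4:**
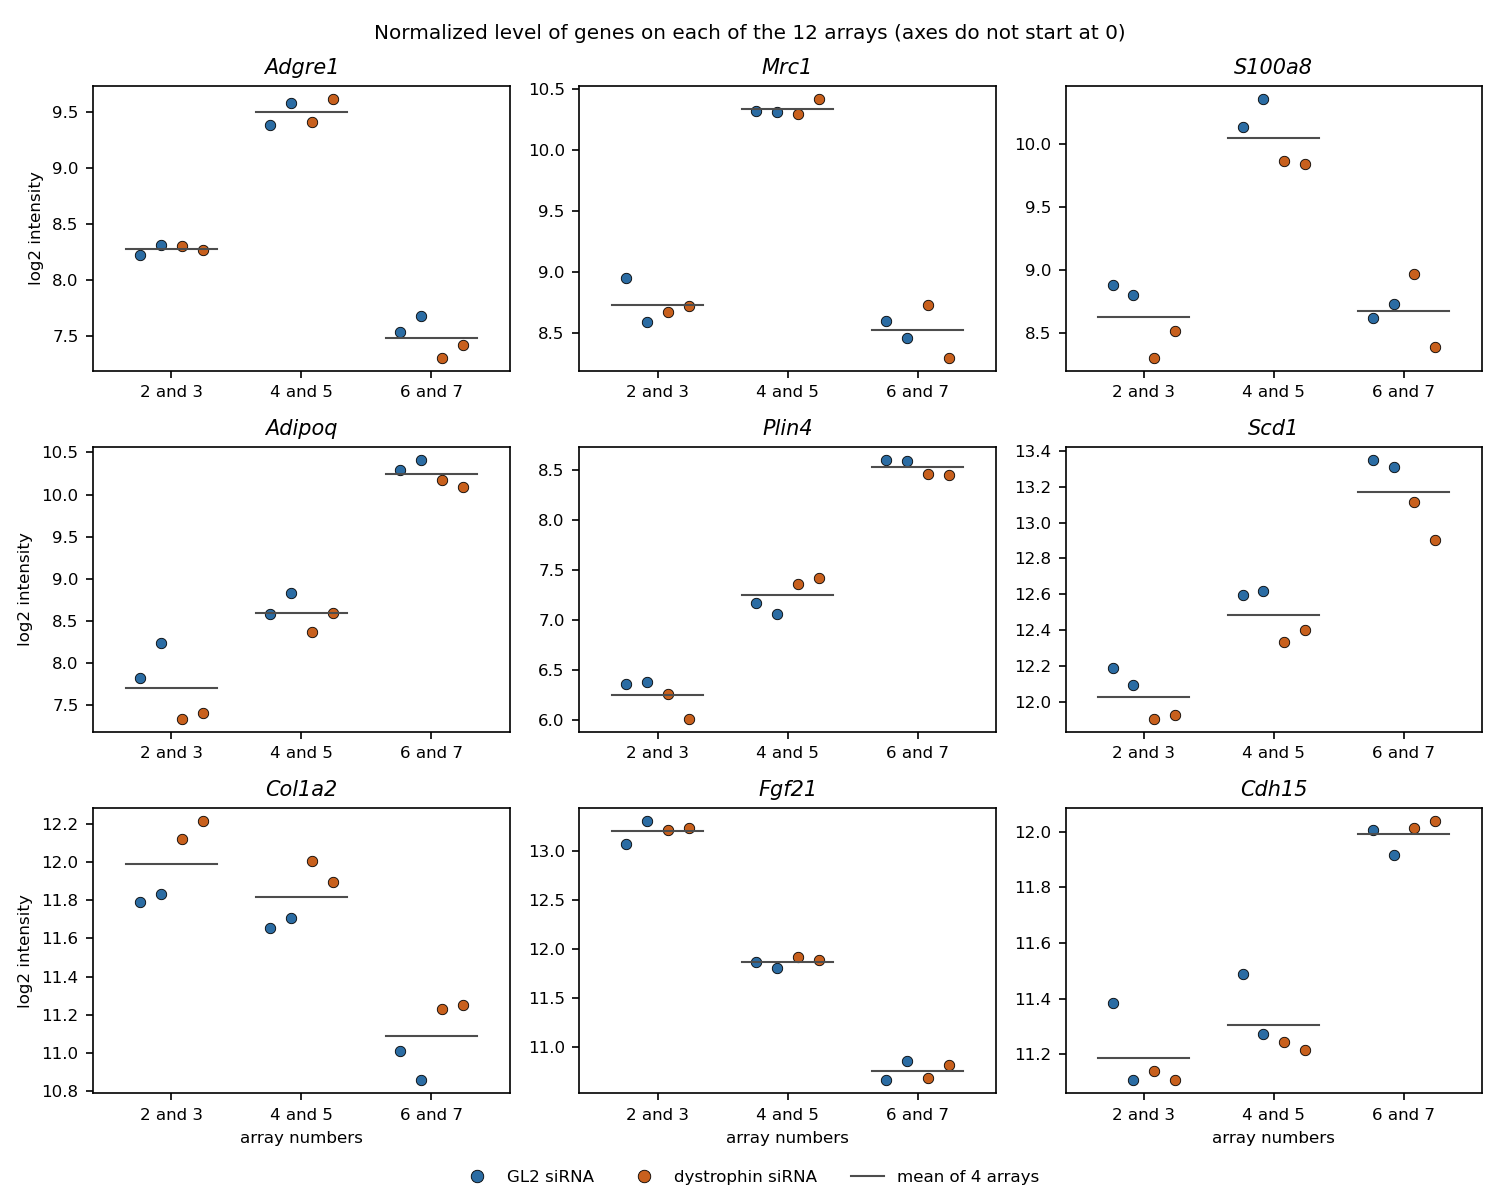
Normalized log2 intensity of 9 genes on each of the 12 arrays by array number (blue, GL2 siRNA; orange, dystrophin siRNA; bar, mean of 4 arrays); each panel has its own axis, which does not start at 0. *Adgre1*, *Mrc1* and *S100a8* are highest in arrays 4 and 5, *Adipoq*, *Plin4*, *Scd1* and *Cdh15* in arrays 6 and 7, and *Fgf21* is highest in arrays 2 and 3 (mean 13.21), then 4 and 5 (11.87), then 6 and 7 (10.75).

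The promoters of the called macrophage genes held purine-rich letters more often than promoters at large. All 21 detected macrophage genes were called, so no uncalled ones were left to compare, and a link to the set differences was not tested. RefSeq windows (GRCm38.p6, 250 bases before to 50 after the start) were found for 16 of the 21 called macrophage genes. GAGGAA, the core bound by ETS factors such as PU.1, stood on either strand in 11 of 16 (68.8%) against 28.3% of 27025 promoters. The overlapping AGGAAGT stood in 8 of 16 (50%, against 9.57%). In the interferon list, described below, the interferon-stimulated response element (GAAA, any 2 bases, then GAAA) stood in 4 of 7 promoters (57.1%, against 3.49%), and in the matrix lists TATAAA stood in 8 of 31 (25.8%, against 14.2%). Those shown were chosen from 12 motifs searched in 4 lists after their counts were seen, so the shares are a description. Windows of *Ctss* (chr3:95526536-95526835, plus strand), *Cd53* (chr3:106790100-106790399, minus strand) and *Rsad2* (chr12:26456403-26456702, minus strand) are printed 5′ to 3′ along the gene. Capitals mark GAGGAA and the interferon element on either strand (TTCCTC is GAGGAA on the other strand).
Ctss: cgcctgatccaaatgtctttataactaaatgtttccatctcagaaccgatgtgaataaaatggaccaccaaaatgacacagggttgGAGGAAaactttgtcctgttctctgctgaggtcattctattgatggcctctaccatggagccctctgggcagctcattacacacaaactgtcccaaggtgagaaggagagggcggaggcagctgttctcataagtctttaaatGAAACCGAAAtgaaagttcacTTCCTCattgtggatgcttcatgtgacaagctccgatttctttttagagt
Cd53: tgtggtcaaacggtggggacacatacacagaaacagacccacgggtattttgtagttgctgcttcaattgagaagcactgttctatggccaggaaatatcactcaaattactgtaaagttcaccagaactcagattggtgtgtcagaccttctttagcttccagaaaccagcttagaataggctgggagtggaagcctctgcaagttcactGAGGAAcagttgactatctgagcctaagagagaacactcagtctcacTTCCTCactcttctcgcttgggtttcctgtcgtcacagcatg
Rsad2: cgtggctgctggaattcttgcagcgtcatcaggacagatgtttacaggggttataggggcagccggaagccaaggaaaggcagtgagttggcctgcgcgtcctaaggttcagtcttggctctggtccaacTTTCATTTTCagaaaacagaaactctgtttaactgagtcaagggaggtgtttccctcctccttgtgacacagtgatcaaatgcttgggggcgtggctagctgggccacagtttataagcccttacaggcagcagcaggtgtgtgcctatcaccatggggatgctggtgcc
The *Ctss* and *Cd53* windows each hold GAGGAA at 2 places, *Ctss* holds the interferon element at 1 place as well, and *Rsad2* holds that element at 1 place and no GAGGAA.

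Granulocyte genes followed the macrophage genes in being highest in set B. Of 12 detected genes of lymphocytes, granulocytes and mast cells, 9 differed among sets (15.4% of all detected genes did), 7 of them highest in set B. *S100a8*, a subunit of the neutrophil protein calprotectin, read 8.88, 8.80, 8.30 and 8.51 in set A, 10.14, 10.36, 9.86 and 9.84 in set B and 8.61, 8.73, 8.97 and 8.38 in set C. Set B stood clear of both others, which overlapped. The difference from set A was 1.43 (SE 0.15, adjusted p = 0.00055) and that of set C from set B was -1.38 (adjusted p = 0.00044). Its partner *S100a9* was 3.12-fold higher in set B than in set A (adjusted p = 0.00093). Lactoferrin, *Ltf*, differed by 1.79 (adjusted p = 0.00016), and myeloperoxidase, *Mpo*, detected on no array of set A, was at least 2.49-fold higher in set B (adjusted p = 0.00038). The count higher in set B than in set A was 8 of 12 (3.52% of all detected genes), and 5 without any 1 of GL2 arrays 3, 4 and 5 and Dys arrays 3 and 5.

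Interferon-stimulated genes were lowest in set A. Of 23 detected, 10 differed among sets (15.4% of all detected genes did), 7 highest in set B and 3 in set C, and the list mean was 8.60 ± 0.08, 9.06 ± 0.05 and 8.89 ± 0.08 in sets A, B and C (SD, n = 4). *Rsad2*, the antiviral enzyme viperin, read 9.07, 9.35, 8.65 and 8.27 in set A, 10.02, 10.19, 9.52 and 9.66 in set B and 9.68, 9.78, 9.21 and 9.44 in set C. Within each siRNA every array of sets B and C was above both arrays of set A. It was higher than in set A by 1.01 in set B (adjusted p = 0.0019) and by 0.69 in set C (adjusted p = 0.0094). *Oas2*, a sensor of double-stranded RNA, was 1.00 higher in set B than in set A (adjusted p = 0.0071), and *Ifit3* 0.78 higher (adjusted p = 0.01). The GTPases *Mx2* and *Gbp3* were 0.68 higher in set C than in set A (adjusted p = 0.0088 and 0.0081). Set B against set A gave 10 genes higher (3.52% of all detected genes), and 4 to 6 without GL2 array 2, 4 or 5 or Dys array 2, 3 or 5.

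Genes of antigen presentation split between sets. Of 15 detected, 9 differed (15.4% of all detected genes did), 7 highest in set B and 2 in set A. *Cd74*, the invariant chain of class II molecules, was detected in set B alone, at 5.32, 5.08, 5.58 and 5.29, and was at least 1.19-fold above both other sets (adjusted p = 0.00014 against set C). *H2-Ab1*, a class II chain, did not follow it. It read 8.50, 8.73, 9.06 and 8.95 in set A, 7.53, 8.01, 8.98 and 8.82 in set B, and 7.22, 7.13, 7.94 and 8.18 in set C. It was highest in set A and was 1.19 lower in set C (log2 difference -1.19, SE 0.16, adjusted p = 0.0024); its second detected probe gave -1.09 (adjusted p = 0.0092). *H2-DMa*, which loads peptides on class II molecules, was 0.73 lower in set C than in set B (log2 difference -0.73, adjusted p = 0.011).

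Chemokines moved in both directions. Of 26 detected chemokines and inflammatory cytokines, 11 differed (15.4% of all detected genes did), 6 highest in set B and 5 in set A. Without Dys array 2 or 3 the count that differed was 7. *Ccl9*, a chemokine of myeloid cells, read 8.52, 8.55, 8.45 and 8.31 in set A, 9.31, 9.37, 9.20 and 9.33 in set B and 8.27, 8.26, 8.26 and 7.66 in set C. Set B was above set A by 0.84 (adjusted p = 0.0058) and above set C, the difference of set C from set B being -1.19 (adjusted p = 0.00045). *Cxcl14*, made by stromal cells, ran the other way, with 7.28, 7.15, 8.04 and 7.70 in set A, 5.67, 5.95, 6.95 and 6.29 in set B and 5.39, 4.95, 6.61 and 5.83 in set C. Every array of set A was above every array of sets B and C. Its level was 3.6-fold lower in set C than in set A (log2 difference -1.85, SE 0.20, adjusted p = 0.00082), and 3 of 4 arrays of set C detected it.

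Most fat cell genes that differed were highest in set C. Of 32 genes of adipocyte differentiation and the lipid droplet, 24 were detected and 13 differed (15.4% of all detected genes did). Of the 13, 8 were highest in set C. Set C against set A gave 9 higher (6.93% of all detected genes) and 5 lower (7.42% of all). The count lower was 2 without Dys array 2 and 3 without GL2 array 7 or Dys array 7. The list mean was 9.18 ± 0.03, 9.26 ± 0.01 and 9.47 ± 0.05 in sets A, B and C (SD, n = 4).

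*Adipoq*, the hormone adiponectin, made almost only by fat cells, read 7.83, 8.23, 7.34 and 7.41 in set A, 8.59, 8.84, 8.37 and 8.60 in set B and 10.29, 10.41, 10.17 and 10.09 in set C. The 3 sets did not overlap and lay in the order A, B, C. Set C was 5.79-fold above set A (log2 difference 2.53, SE 0.13, adjusted p = 4.9e-06) and 3.12-fold above set B (adjusted p = 9.4e-05). The difference of C from A was 2.32 within GL2 arrays and 2.75 within Dys arrays.

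*Plin4*, a coat protein of lipid droplets, showed the same order. It read 6.36, 6.38, 6.27 and 6.02 in set A, 7.17, 7.06, 7.36 and 7.42 in set B and 8.59, 8.59, 8.46 and 8.45 in set C. Set C was 4.8-fold above set A (log2 difference 2.26, SE 0.12, adjusted p = 4.9e-06). *Scd1*, the desaturase that makes oleic acid, belongs to the fatty acid synthesis list, in which 2 of 14 detected genes differed (15.4% of all detected genes did). It read 12.19, 12.09, 11.91 and 11.93 in set A, 12.60, 12.62, 12.33 and 12.40 in set B and 13.35, 13.31, 13.11 and 12.90 in set C. The sets again did not overlap, and set C was 1.14 above set A (SE 0.09, adjusted p = 0.00015).

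Fat genes outside the list included some at the background elsewhere. *Adig*, adipogenin, was detected on 4 of 4 arrays of set C and on none of sets A and B, at least 2.75-fold above set A (adjusted p = 0.00013). Among the 12 arrays, 30 detected probes (0.154%) were detected in set C alone, and the 4 arrays of 1 set are enough to meet the detection rule. *Mrap*, an accessory protein of melanocortin receptors in fat, read 7.69, 7.98, 7.56 and 7.34 in set C, was detected on 3 of 4 arrays of set B and none of set A, and was at least 5.97-fold above set A (adjusted p = 2.5e-05). *Apoc1*, an apolipoprotein, was 5.65-fold higher in set C than in set A (adjusted p = 0.0026). Within the list, *Pparg*, the regulator of fat cell differentiation, was 0.96 higher (adjusted p = 0.002), and *Cidec*, which enlarges lipid droplets, 0.87 higher (adjusted p = 0.0099). Of the other defining markers of fat cells, *Fabp4* was detected on none of the 18 arrays, *Plin1* on 1, and *Lpl* did not pass the F test (adjusted p = 0.14).

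Other members of the fat list went both ways between sets A and C. *Fabp5*, a fatty acid carrier of many cell types, read 6.91, 7.09, 7.28 and 7.18 in set A, 7.30, 6.77, 7.34 and 7.52 in set B and 5.32, 6.04, 6.55 and 6.12 in set C. Set C was below all other arrays, by 1.11 against set A (log2 difference -1.11, adjusted p = 0.0061). *Angptl4*, a secreted inhibitor of lipoprotein lipase that fasting and hypoxia induce, read 10.16, 10.09, 10.32 and 10.18 in set A, 9.31, 9.43, 9.58 and 9.35 in set B and 8.63, 8.86, 9.16 and 9.21 in set C. The order was A, B, C from high to low, with -1.22 for C against A (adjusted p = 0.00039), but its second, dimmer probe gave -0.18 and did not pass the F test (adjusted p = 0.49). *Slc2a4* and *Gpd1*, the insulin-responsive glucose transporter and glycerol-3-phosphate dehydrogenase, were 0.89 and 0.91 higher in set C than in set A (adjusted p = 0.0035 and 0.011). Both also differed with the siRNA, *Gpd1* by -1.95 (adjusted p = 1.2e-05).

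Some acute phase genes, which liver and fat cells secrete, were also highest in set C. Haptoglobin, *Hp*, averaged 8.80 ± 0.22 in set A and 9.48 ± 0.20 in set B (SD, n = 4), and read 10.00, 10.53, 10.75 and 10.59 in set C, a mean of 10.47 ± 0.33. The sets lay in the order A, B, C without overlap, and set C was 3.17-fold above set A (adjusted p = 0.00075). Orosomucoid, *Orm1*, detected on no array of set A, was at least 2.53-fold higher in set C (adjusted p = 0.0011). *Lcn2*, lipocalin 2, was 0.86 higher in set C than in set A (adjusted p = 0.016). In the list of complement and acute phase genes, 11 of 14 detected genes differed (15.4% of all detected genes did). Of these 7 were highest in set A, 1 in set B and 3 in set C. The 7 included *Ptx3*, the long pentraxin, at 10.42, 10.11, 11.26 and 10.73 in set A, 9.58, 9.77, 9.99 and 10.05 in set B and 9.04, 8.77, 9.38 and 9.20 in set C. It was 2.89-fold lower in set C than in set A (adjusted p = 0.00045). The C1 inhibitor *Serping1* was 0.87 lower and the protease inhibitor *Serpina3n* 1.15 lower in set C than in set A (log2 differences -0.87 and -1.15, adjusted p = 0.00097 and 0.0017).

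Matrix genes ran from high in set A to low in set C. Over all detected genes 15.4% differed among sets. Among 16 detected interstitial collagens 8 differed, all 8 highest in set A. Among 31 matrix glycoproteins and proteoglycans 19 differed, 17 of them highest in set A, and among 26 genes of collagen processing 10 differed, all 10 highest in set A. Against set A, set C was lower in 9 collagens, 19 glycoproteins and 10 processing genes and higher in none of the 3 lists (7.42% of all detected genes were lower). The collagen mean was 11.48 ± 0.07, 11.21 ± 0.02 and 11.02 ± 0.07 in sets A, B and C, and the glycoprotein mean 10.39 ± 0.04, 10.12 ± 0.06 and 9.89 ± 0.05 (SD, n = 4). Without Dys array 7 the F test called 4 collagens, 5 without GL2 array 7, Dys array 3 or Dys array 6, and without Dys array 2 it called 12 glycoproteins.

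*Col1a2*, a chain of type I collagen, read 11.79, 11.83, 12.12 and 12.21 in set A, 11.66, 11.70, 12.01 and 11.90 in set B and 11.01, 10.86, 11.23 and 11.25 in set C. Sets A and B overlapped, and set C lay below both. The level in set C was 1.87-fold below set A (log2 difference -0.90, SE 0.08, adjusted p = 0.00045) and 1.66-fold below set B (adjusted p = 0.00085). The other chain, *Col1a1*, was 0.52 lower in set C than in set A (log2 difference -0.52, adjusted p = 0.014).

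*Col8a1*, a short-chain collagen, fell in the order A, B, C, with 12.30, 12.31, 13.05 and 12.86 in set A, 11.97, 11.95, 12.52 and 12.52 in set B and 11.45, 11.34, 11.83 and 11.82 in set C. Within each siRNA the sets did not overlap, and C against A gave -1.02 (adjusted p = 0.00035). *Col3a1*, the fibrillar collagen of soft tissue, gave -1.06 (adjusted p = 0.0039).

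*Postn*, periostin, a matricellular protein of fibroblasts, overlapped between sets A and B and was lower in set C. It read 8.13, 8.10, 8.85 and 8.88 in set A, 8.13, 8.19, 8.66 and 8.65 in set B and 7.29, 6.52, 7.72 and 7.44 in set C. Set C was 2.37-fold below set A (adjusted p = 0.0012), and the siRNA difference was 0.64 (adjusted p = 0.01). A dimmer probe of the gene gave -0.60 and did not pass (adjusted p = 0.41). *Cilp*, a cartilage matrix protein, was detected on no array of set C and on 4 of 4 of set B, at least 1.37-fold above set C (adjusted p = 0.0062).

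*Comp*, the cartilage oligomeric matrix protein, had an order of its own. It read 7.71, 7.63, 8.02 and 8.04 in set A, 6.68, 6.48, 6.97 and 6.69 in set B and 7.18, 7.34, 7.35 and 7.40 in set C, so that set B was lowest and no sets overlapped. Set B was 2.22-fold below set A (log2 difference -1.15, SE 0.10, adjusted p = 0.00036) and set C 1.53-fold above set B (adjusted p = 0.0089). *Tnmd*, tenomodulin of tendon cells, was lower than in set A by similar amounts in set B (log2 difference -0.65, adjusted p = 0.0058) and set C (-0.67, adjusted p = 0.0032). The other cartilage and tendon markers did not follow it. *Scx* and *Acan* did not pass the F test (adjusted p = 0.54 and 0.39). *Col2a1* passed the F test (adjusted p = 0.015) and was highest in set B, at a mean of 7.63 against 7.03 in set A and 6.75 in set C. Its dimmer probe did not pass the F test (adjusted p = 0.19).

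Of the remaining matrix genes, set C against set A gave log2 differences of -1.22 for *Thbs1*, thrombospondin 1, -1.02 for the proteoglycan *Prelp* and -0.77 for tenascin C, *Tnc* (adjusted p = 0.0028, 0.003 and 0.0026). *Thbs1* also rose by 1.25 with the dystrophin siRNA (adjusted p = 0.00036). The other 3 detected probes of *Tnc* gave -0.76 to -0.26, and none of them passed the F test. The small proteoglycans lumican and decorin, *Lum* and *Dcn*, gave -0.74 and -0.48 (adjusted p = 0.0024 and 0.011). The other 4 detected probes of *Dcn* gave -0.26 to -0.41, and none of them passed the F test. *P4ha3*, a collagen prolyl hydroxylase, gave -0.95, *Mmp3*, stromelysin 1, -0.73 and *Timp1*, an inhibitor of metalloproteinases, -0.45 (adjusted p = 0.0017, 0.0021 and 0.013).

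Fibroblast markers moved with the matrix, though not all. Of 26 detected fibroblast genes 10 differed (15.4% of all detected genes did), all 10 highest in set A. The count that differed was 5 without Dys array 2 and 6 without GL2 array 2 or 3. *Thy1*, a surface marker of fibroblasts, read 13.11, 13.17, 13.39 and 13.34 in set A, 12.77, 12.80, 13.13 and 12.89 in set B and 12.33, 12.40, 12.76 and 12.48 in set C. Set A was above set C on every array, by 1.69-fold (log2 difference -0.76 for C against A, adjusted p = 0.0016). *Pdgfra*, the receptor that marks fibro-adipogenic progenitors, read 11.41 to 11.65 in set A, 11.44 to 11.66 in set B and 10.97 to 11.40 in set C. Its C against A difference of -0.35 did not pass (adjusted p = 0.12). The secreted Wnt modulator *Sfrp1* and the matricellular *Ccn5* were lower in set C than in set A, by -1.06 and -1.30 on the log2 scale (adjusted p = 0.00082 and 0.0011).

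In the contractile program fewer genes were called. Of 18 detected fast-fibre genes 3 differed, of 16 slow-fibre and cardiac genes 2, and of 28 embryonic and shared sarcomere genes 4, shares near the 15.4% of all detected genes. The count for the embryonic list was 1 or 2 without GL2 array 6 or 7 or Dys array 2, 6 or 7. With an intensity trend and robust hyperparameters the fast, slow and embryonic counts were 4, 6 and 15. In that fit 5230 of 19437 detected probes were called. The fast-fibre mean was 12.53 ± 0.04, 12.48 ± 0.04 and 12.34 ± 0.07 in sets A, B and C (SD, n = 4). By the siRNA term 11 of the 18 fast-fibre genes were lower with the dystrophin siRNA and 2 higher. Over all 10500 detected genes 640 were lower and 589 higher by that term. In the fast-fibre list the siRNA called more genes than the set did. Of the defining myotube markers, skeletal actin *Acta1*, *Myog*, *Ckm*, *Ttn* and *Des* had F test adjusted p-values of 0.28, 0.1, 0.58, 0.14 and 0.74 among sets, and each was detected on all 18 arrays. Of the other 11 detected probes of *Ttn*, 2 passed the F test, 1 of them lower in set C than in set A (log2 difference -0.51, F test adjusted p = 0.012) and 1 higher (F test adjusted p = 0.044).

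*Myh2*, the myosin heavy chain of fast oxidative fibres, was among the 3. It read 11.54 and 11.44 on the GL2 arrays and 12.50 and 12.37 on the Dys arrays of set A, 9.99, 10.52, 12.15 and 12.41 in set B, and 8.48, 8.54, 11.45 and 11.34 in set C. The fall from A to C was steeper in GL2 (-2.98) than in Dys arrays (-1.04). Over both, set C was 4.03-fold below set A (log2 difference -2.01, SE 0.31, adjusted p = 0.0046). The test of whether the set difference depended on siRNA gave an unadjusted p of 0.00013 for this gene and did not pass after adjustment.

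*Mb*, myoglobin, which stores oxygen in oxidative fibres, read 13.42, 13.43, 12.62 and 12.49 in set A, 13.28, 13.25, 12.34 and 12.24 in set B and 12.56, 12.69, 11.84 and 11.75 in set C. Within each siRNA set C was lowest, and both siRNAs gave nearly the same fall, -0.80 and -0.76 (adjusted p = 0.00091 over both). *Mybpc2*, fast myosin-binding protein C, was lower in set C than in set A by -0.77, tropomyosin 1, *Tpm1*, by -0.49 and the stretch-responsive *Ankrd1* by -0.67 (adjusted p = 0.0029, 0.0076 and 0.0087). All 4 genes also differed with the siRNA, *Mybpc2* by -1.54 (adjusted p = 2.5e-06).

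Some myogenic genes were highest in set C. Of 20 detected myogenic regulators and fusion genes 7 differed (15.4% of all detected genes did), 6 highest in set C. The count that differed was 2 without Dys array 7 and 3 or 4 without 7 of the other arrays. It was 4 with median centring and 12 without background correction. *Cdh15*, M-cadherin, which joins myoblasts before fusion, read 11.39, 11.11, 11.14 and 11.11 in set A, 11.49, 11.27, 11.24 and 11.21 in set B and 12.01, 11.92, 12.01 and 12.04 in set C. All 4 arrays of set C stood above the other 8, 1.75-fold above set A (log2 difference 0.81, SE 0.10, adjusted p = 0.0015). *Rb1*, the retinoblastoma protein that holds myotubes out of the cycle, was 0.72 higher in set C than in set A (adjusted p = 0.01). *Chrnb1*, an acetylcholine receptor subunit, and *Rapsn*, which clusters the receptor, were 0.48 and 0.55 higher (adjusted p = 0.011 and 0.0057), and *Synpo2l*, a Z-disc protein, 0.58 higher (adjusted p = 0.0054). In the excitation-contraction coupling list, 4 of 21 detected genes differed, all 4 highest in set C. This share was near the 15.4% of all detected genes, and the count was 2 without any of 10 arrays. Without background correction it was 11 of 21, where 5421 of 19437 detected probes were called. *Igf1*, a growth factor of muscle and stroma, ran the other way, at -0.60 (adjusted p = 0.0058).

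Of the 3 myoblast markers, *Pax7* and *Myf5* were detected on none of the 18 arrays. *Myod1*, the myogenic determination factor, was detected on all 18 and passed the F test (adjusted p = 0.046), and it was 0.61 higher in set C than in set B (adjusted p = 0.038). With single arrays left out, the F test call of *Myod1* was made in 2 of 12 cases (adjusted p 0.044 to 0.14).

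Several stress response genes were highest in set A. *Fgf21*, a hormone that muscle releases under mitochondrial or nutrient stress, read 13.08, 13.31, 13.22 and 13.24 in set A, 11.86, 11.80, 11.91 and 11.89 in set B and 10.66, 10.86, 10.68 and 10.82 in set C. The spread within a set was a small part of the differences between sets, and the siRNA difference was 0.03 (adjusted p = 0.89). Set C was 5.49-fold below set A (log2 difference -2.46, SE 0.09, adjusted p = 3.3e-07) and set B 2.53-fold below set A (adjusted p = 9.4e-05), and 99.5% of its variance after siRNA lay between sets.

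*Mthfd2*, a mitochondrial folate enzyme that ATF4 induces, read 12.67, 12.51, 13.04 and 12.79 in set A, 11.86, 12.07, 11.85 and 11.98 in set B and 11.70, 11.79, 11.85 and 11.98 in set C. Set A was above sets B and C, which overlapped, and C against A gave -0.92 (adjusted p = 0.0015). *Asns*, asparagine synthetase, a classical ATF4 target, gave -0.79 (adjusted p = 0.00065), but its second probe gave -0.45 and did not pass the F test (adjusted p = 0.13). Of the 30 detected genes of the unfolded protein and integrated stress responses, 10 differed (15.4% of all detected genes did), 8 highest in set A. The count that differed was 5 without Dys array 7 and 6 without GL2 array 2, GL2 array 6 or Dys array 5.

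Other stress programs were mixed. *Hmox1*, haem oxygenase 1, read 10.89, 11.10, 10.20 and 10.38 in set A, 10.17, 9.53, 10.08 and 9.30 in set B and 11.22, 10.84, 11.00 and 10.75 in set C. Set B was lowest, 2.27-fold below set C (adjusted p = 0.011). *Gsta4*, which conjugates lipid aldehydes, was 0.70 higher in set C than in set A (adjusted p = 0.0026). *Sod3*, the extracellular superoxide dismutase, was lower in set B than in set A (log2 difference -0.99, adjusted p = 0.0092). *Ndrg1*, induced by hypoxia, and the transcription factor *Klf4* were lower in set C than in set A (log2 differences -1.09 and -1.03, adjusted p = 0.0065 and 0.0052). The other probes of *Klf4* gave -0.77 and -0.14 and did not pass. By count, 2 of 25 detected hypoxia and glycolysis genes, 2 of 27 cell cycle genes (0 or 1 without any of 10 arrays), 4 of 36 genes of oxidative phosphorylation and 1 of 19 clock genes differed, against 15.4% of all. Higher shares were called in the antioxidant and detoxification list, 7 of 24 (5 highest in set A and 2 in set C), and in the immediate early list, 5 of 22, all 5 highest in set A (3 without GL2 array 6 or Dys array 6 or 7). Of 16 cholesterol and 12 heat shock genes limma called 0, with 4 and 3 at an unadjusted F test p under 0.05.

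Lists of other cell types were short and called unevenly. Of 9 detected Schwann and neural genes 5 differed (2 or 3 without any of 11 arrays), of 8 keratinocyte and epithelial genes 4 (1 or 2 without any of 11 arrays) and of 11 genes of cartilage, bone and tendon 4, against 15.4% of all detected genes. *Sox10*, the transcription factor of Schwann cells, was detected on all 18 arrays and was lower in set C than in set A (log2 difference -0.48, adjusted p = 0.0082). Of the keratinocyte markers, *Krt5* and *Krt14* were detected on none of the 18 arrays, and the erythroid *Alas2* likewise. The endothelial *Pecam1*, *Cdh5* and *Kdr* were detected on all 18, with F test adjusted p of 0.054, 0.062 and 0.87 among sets. In the pairwise test *Pecam1* and *Cdh5* were lower in set C than in set A, by -0.36 and -0.49 on the log2 scale (adjusted p = 0.035 and 0.032), and a dimmer probe of *Pecam1* passed the F test (-0.77 for C against A, F test adjusted p = 0.037). Of 16 detected endothelial genes 5 differed, 4 highest in set A, and none of the 5 calls was made without GL2 array 2 or 5, and 1 to 3 were made without any of 8 others. *Mbp*, a myelin protein gene, was 0.92 lower in set C than in set A (log2 difference -0.92, adjusted p = 0.0011). Of its dimmer probes 1 passed the F test (adjusted p = 0.018). In the pairwise tests that probe gave -1.07 for C against B (adjusted p = 0.013) and -0.57 for C against A, which did not pass (adjusted p = 0.11). Another dimmer probe did not pass the F test (0.12 for C against A, F test adjusted p = 0.76). In the macrophage list, *Ptprc* was detected on none of the 18 arrays. The part of any change in cell makeup in the set differences was not tested.

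The widest set difference among detected probes was that of a gene outside every list. *Psmc1*, an ATPase subunit of the proteasome, read 3.05, 3.21, 2.97 and 2.91 in set A, where no array detected it, and 10.19, 10.48, 10.14 and 10.13 in set B and 10.55, 10.33, 9.77 and 10.26 in set C. The level was either near the floor or about 10, with nothing between. The values are those of a single probe, and the untreated cultures also split between these levels (below). Whether the probe follows the transcript level was not tested. Set B was at least 36.0-fold above set A (adjusted p = 1.3e-10), and sets B and C differed by -0.01.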

How the data were processed

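RNA of each culture was hybridised to 1 Illumina MouseWG-6 array. The authors deposited a BeadStudio export with the mean bead signal of each probe as an intensity, not normalized, and a detection p-value. They also deposited processed intensity values, background corrected and quantile normalized, per the labels with the lumi package, version not given in the sources used here. From the deposited signals an RMA-type background correction, log2 and quantile normalization over the 18 arrays were recomputed in R 4.3.3. The result differed from the authors' processed values by a median of 0.00248 on the log2 scale and at most 0.0223. Sets and siRNA were fitted on 12 arrays with limma 3.58.1 (8 residual degrees of freedom), with a moderated F test over sets, 3 pairwise contrasts and Benjamini-Hochberg adjustment over 46632 probes. Counts are over detected probes, and a gene is its brightest probe. The scripts were tested on simulated data. Of all probes, 29976 carry 1 gene symbol, 10 several and 16646 none, and those without 1 symbol are not named.

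The sets, the 33 gene lists (868 genes) and the named genes were chosen with earlier results of these data known. Genes were named by rank within each contrast and list, which gave 226. The text describes 85 of them, beside cell type markers, and 15 candidates were dropped, 14 because their call was lost when an array was left out. The calls of the named genes with arrays left out are therefore no evidence of stability. Figures were drawn with matplotlib 3.10.9.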

Additional observations from a re-analysis of the deposited data

Results flagged for a closer look

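In each set of 4 arrays the highest or lowest siRNA-adjusted level was compared with the other 3, and a gap above Dixon's critical share of the whole range was met in 17 of 354 groups. Chance flags about 1 in 20 groups. The causes were not tested.

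Among genes in set A, the gap was 0.888 of the range for *Tyrobp* (GL2 array 2 high), 0.838 for *Mpo* (Dys array 2 low), 0.839 for *Gpd1* (Dys array 2 low) and 0.947 for *Col8a1* (Dys array 2 high, at 12.78 against 12.57 to 12.58). In set B it was 0.905 for *Mrc1* (Dys array 5 high), 0.915 for *S100a8* (GL2 array 5 high), 0.871 for *Slc2a4* (Dys array 4 high), 0.832 for *Col8a1* (GL2 array 5 low) and 0.847 for *Mbp* (Dys array 4 high). In set C it was 0.832 for *P2ry13* (Dys array 7 high) and 0.948 for *Rb1* (Dys array 6 low).

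Among list means, the gap was 0.958 for macrophage genes in set A, where GL2 array 2 stood at 8.64 against 8.55 on the others. It was 0.847 for sex-linked genes in set A (Dys array 2 high), 0.933 for granulocyte genes in set B (GL2 array 4 low) and 0.887 for antigen presentation in set B (Dys array 4 high). In set C it was 0.923 for myogenic regulators (Dys array 6 low) and 0.849 for endothelium (Dys array 7 high). The ranges were narrow beside the differences between sets for the macrophage list.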

How the results depend on the processing

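The order of counts below is all sets, B against A, C against A, C against B, interaction with siRNA, and siRNA. Without background correction 5421, 1541, 4496, 3313, 13 and 3894 probes were called, and with saddle-point normexp (offset 50) 5168, 1425, 4285, 3170, 13 and 3734. With an intensity trend and robust hyperparameters the counts were 5230, 1472, 4322, 3052, 10 and 3679. With the fit over detected probes alone they were 5914, 1849, 5137 and 3442 for sets and 4043 for siRNA. B against A gave 460 over probes detected on all 12 arrays and 478 at a detection p under 0.01. Without the siRNA term 1545 probes differed among sets, 1329 for C against A and 771 for C against B. Within GL2 arrays alone limma called 1 (2, 6 and 0 pairwise) and within Dys arrays 1 (1, 5 and 0), with 2 arrays a set. Higher and lower calls of B against A, 583 and 224, became 847 and 694 without background correction.

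With single arrays left out, counts ran from 1673 (without Dys array 7) to 2251 for sets, 429 (without GL2 array 5) to 796 for B against A, 1454 (without Dys array 7) to 2259 for C against A and 695 (without Dys array 5) to 1360 for C against B. The variance share ran from 46.2 to 49.0%. Of the 2797 probes, 1237 (44.2%) were called with each array left out. Of 226 genes the naming rule gave, 200 passed the F test and 139 (69.5%) kept it. No named gene reversed. *Pdgfra* passed under 4 settings, and 18 named genes lost their call without the siRNA term.

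Array numbers pair no samples by the labels, and same-numbered deviations correlated at 0.0483, 0.0393 and 0.13. With the number as a random replicate block 2982 probes differed among sets, and as a fixed block the siRNA count was 1391. Dim probes, detected on few arrays, limit what the smaller differences can show.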

Other observations

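The rule that formed the sets left out the 4 untreated arrays and number 1 of each siRNA, and the labels do not say which preparation they share with a set. The macrophage list mean was 9.28, 9.37, 9.45 and 9.39 on the untreated arrays, 9.05 on GL2 array 1 and 8.96 on Dys array 1, all between the levels of sets A and B. The adipocyte list mean was 9.33, 9.50, 9.48 and 9.50 on the untreated arrays, 9.33 on GL2 array 1 and 9.13 on Dys array 1.

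*Psmc1* took the same pair of levels on these arrays. It read 3.14 and 3.01 on untreated arrays 1 and 2, 9.58 and 10.28 on untreated arrays 3 and 4, 10.20 on GL2 array 1 and 3.38 on Dys array 1.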
